A study of Mus musculus with 8 samples.

Results

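Egr1, Egr2, Egr3, Ier2, Ier3, Dusp1, Dusp2, Dusp4, Dusp5 and Dusp6 are growth factor-induced genes and MAP kinase phosphatases that lie downstream of ERK signalling. They were selected by gene symbol, and all 10 were present among the 24346 symbols of every library. Of the 10, 9 reached an FPKM of 1 or more in 2 or more libraries and were tested, as did 12003 genes in all, and Egr3 did not. The study asked how red blood cells (RBCs) change gene expression in hematopoietic stem cells. RNA was sequenced from wild-type mouse bone marrow cells sorted either as HSCs (Lin-, Sca-1+, c-Kit+, CD48- and CD150+, named LT-HSC in the labels) or as LSK cells (Lin-, Sca-1+ and cKit+), a broader gate that holds stem cells and multipotent progenitors. Each population was cultured for 1 day alone or in coculture with RBCs, which gave 4 groups of 2 libraries each: HSCs without RBCs, HSCs with RBCs, LSK cells without RBCs and LSK cells with RBCs. The RBCs came from mouse blood that had been filtered to remove leukocytes and then irradiated. The study's culture medium for HSCs contained SCF, so the cells without RBCs were also under growth factor stimulation. After culture, RBCs were lysed and about 3000 CD45-positive cells were sorted for each library with no further marker, so the profiles describe what the HSCs or LSK cells had become after 1 day. The labels do not say whether replicates came from separate mice or wells. The p-values therefore measure only the spread between libraries, which may be technical. The age of the mice is not in the labels either, and the paper gives only an age range for its mice as a whole.

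SCF acts through the receptor tyrosine kinase Kit and switches on the Ras, Raf, MEK and ERK cascade. ERK phosphorylates ETS-family ternary complex factors that sit with serum response factor (SRF) on CArG boxes, and this starts transcription of immediate early genes such as Egr1, Egr2, Egr3 and Ier2 within minutes. The dual-specificity phosphatases (DUSPs) encoded by several of the induced genes then remove phosphate from the threonine and tyrosine of the MAP kinases, which closes a negative feedback loop. In hematopoietic stem cells, Egr1 is known as a regulator of quiescence and of retention in the bone marrow.

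Promoter sequence was read from RefSeq promoter windows for 6 of the 10 members (Egr2, Ier3, Dusp1, Dusp2, Dusp5 and Dusp6). Egr1 was left out of this search, and Egr3, Ier2 and Dusp4 had no window. The windows are on build GRCm38.p6, the assembly that mm10, the build of the deposited values, names. The 250 bases before the transcription start were searched on both strands for a CArG box (CC, then 6 bases each A or T, then GG), the cyclic AMP response element TGACGTCA and its core TGACG, which the full element contains, the AP-1 site TGACTCA, the EGR site GCGGGGGCG and the ETS site CCGGAAG. 4 windows are shown 5′ to 3′ on the strand of the gene, with CArG boxes and TGACG, in either orientation, in capitals: Egr2 (chr10:67537619-67537868, plus strand) and Dusp5 (chr19:53528895-53529144, plus strand) because both hold CArG boxes, Dusp1 (chr17:26508473-26508722, minus strand) because it holds TGACG but no CArG box, and Dusp6 (chr10:99262981-99263230, plus strand) because it holds none of the 6 motifs.
Egr2: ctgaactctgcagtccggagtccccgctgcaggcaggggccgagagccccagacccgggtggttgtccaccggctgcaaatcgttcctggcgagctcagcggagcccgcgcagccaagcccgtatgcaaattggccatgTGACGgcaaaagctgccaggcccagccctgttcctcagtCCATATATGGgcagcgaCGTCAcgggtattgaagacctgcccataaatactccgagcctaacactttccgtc
Dusp5: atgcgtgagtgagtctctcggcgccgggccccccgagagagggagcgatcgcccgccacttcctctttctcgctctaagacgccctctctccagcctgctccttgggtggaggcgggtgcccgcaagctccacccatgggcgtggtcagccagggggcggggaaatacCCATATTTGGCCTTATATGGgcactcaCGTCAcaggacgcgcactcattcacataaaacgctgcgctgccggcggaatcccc
Dusp1: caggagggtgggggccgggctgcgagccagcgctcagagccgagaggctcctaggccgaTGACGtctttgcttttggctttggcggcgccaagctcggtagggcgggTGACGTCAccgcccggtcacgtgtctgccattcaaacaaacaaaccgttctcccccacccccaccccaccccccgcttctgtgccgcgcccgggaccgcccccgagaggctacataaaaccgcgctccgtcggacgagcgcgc
Dusp6: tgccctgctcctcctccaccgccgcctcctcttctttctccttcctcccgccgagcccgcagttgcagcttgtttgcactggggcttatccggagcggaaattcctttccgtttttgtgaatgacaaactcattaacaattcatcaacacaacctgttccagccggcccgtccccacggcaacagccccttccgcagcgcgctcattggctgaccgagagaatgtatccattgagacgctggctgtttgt

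Egr2 held the CArG box CCATATATGG at 72 to 63 bases before the start and CGTCA at 55 to 51 bases before it. Dusp5 held 2 adjoining CArG boxes, CCATATTTGG at 82 to 73 and CCTTATATGG at 72 to 63 bases, again followed by CGTCA at 55 to 51 bases, so that the last CArG box and the core lay at the same positions in both genes. A CArG box was present in 1.47% of the 32851 windows of this length, and TGACG in 17.8%. Dusp1 held the full element TGACGTCA (in 1.55% of windows) beginning 143 bases before the start, and a separate TGACG at 191 bases. Dusp2 (chr2:127335909-127336158, plus strand) held the EGR site GCGGGGGCG at 98 to 90 bases, found in 2.57% of windows. Ier3 (chr17:35821463-35821712, plus strand) and Dusp6 matched none of the 6 motifs, which says only that these letters are not in these windows. AP-1 sites (4.46% of windows) and ETS sites (6.91%) were not matched in any of the 6 members. These matches are descriptions of sequence, and binding was not measured.

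The authors deposited FPKM, fragments scaled by transcript length and library depth, so levels can be set side by side roughly across genes and libraries. This scaling does not remove differences in RNA composition between libraries. FPKM summed to between 680942 and 752107 per library, and relative sequencing depth, read from the steps between low values, ranged from 0.886 to 1.13 with replicate 1 of the LSK cells without RBCs set to 1. HSC and LSK markers (12 of 12 present in the files, Kit, Ly6a and Procr among them) summed to between 1319 and 1682 FPKM in all libraries, and the B cell and T cell marker sums were at most 1.99 and 0.521 FPKM. Of the markers that separate the gates, Cd48 lay at 42.7 and 40.5 FPKM in HSCs without RBCs and at 16.0 and 22.8 with RBCs, and at 147 and 184 against 124 and 128 in LSK cells. Slamf1 (CD150) lay at 10.2 and 10.7 FPKM against 5.50 and 6.59 in HSCs and at 4.58 and 4.63 against 3.09 and 4.28 in LSK cells. In HSCs, Cd48 was called lower with RBCs (-1.08 on the log2 scale, adjusted p = 0.00694, limma), and with no fold threshold Cd34 passed as higher and Procr and Kit as lower, these 3 being named after their values were seen. None of the 12 passed in LSK cells. Markers of other cells moved with coculture too. The summed red blood cell markers (5 of 5 present, none at 0 in all libraries) went from 1.53 to 1.87 FPKM without RBCs to 90.9 to 123 with RBCs in HSCs, and from 1.15 to 1.86 to 36.9 to 45.1 in LSK cells. Neutrophil markers (7 of 8 present) went from 8.22 to 9.57 to 44.0 to 250 FPKM in HSCs and from 127.7 to 213.7 to 358 to 555 in LSK cells. Monocyte or macrophage markers (6 of 6) summed to 402 to 434 without RBCs against 328 to 330 with RBCs in HSCs and to 274 to 364 against 494 to 605 in LSK cells. Most of the HSC sum was Lyz2, singled out after its values were seen, at 312 and 321 FPKM without RBCs and 221 and 218 with RBCs. Gene by gene, 4 of the 5 tested were higher with RBCs in HSCs (median log2 fold change 0.31) and 5 of 5 in LSK cells (median 0.70). Platelet markers (4 of 4) went from 180 to 217 to 171 to 186 in HSCs and from 95.4 to 190 to 69.2 to 79.2 in LSK cells. The part of these cells, and of the gate markers, in the values below was not tested. In such bulk libraries, fewer cells that express a gene cannot be told apart from less RNA per cell.

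Levels differed widely among the 10 genes. Egr1 spanned 35.8 to 296 FPKM over the 8 libraries, Ier2 89.4 to 202, Ier3 81.0 to 156 and Dusp2 76.2 to 107. Dusp5 spanned 17.8 to 45.8 FPKM, Dusp6 23.6 to 48.3 and Dusp1 11.6 to 21.1. Dusp4, at 1.89 to 4.91 FPKM, Egr2, at 0.0992 to 1.77, and Egr3, at 0 to 0.784, were low in every library. The low level of Egr2 rested on 4 to 64 fragments per library and that of Egr3 on 0 to 37, as recovered from the FPKM steps, whereas Egr1 rested on 1498 to 11144. These fragment numbers are the smallest that the values allow. On the log2(FPKM + 1) scale, Pearson's r over the 8 libraries, which share 4 groups and so are not independent points, was 0.99 between Egr1 and Ier2, 0.92 between Egr1 and Egr2 and 0.97 between Egr2 and Ier2. It was 0.46 between Egr1 and Dusp6, 0.64 between Egr1 and Dusp1 and -0.20 between Egr1 and Dusp5. The phosphatase genes did not share a profile, with r = 0.83 between Dusp2 and Dusp6 but -0.16 between Dusp1 and Dusp6 and -0.05 between Dusp1 and Dusp5.

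**Figure D1:**
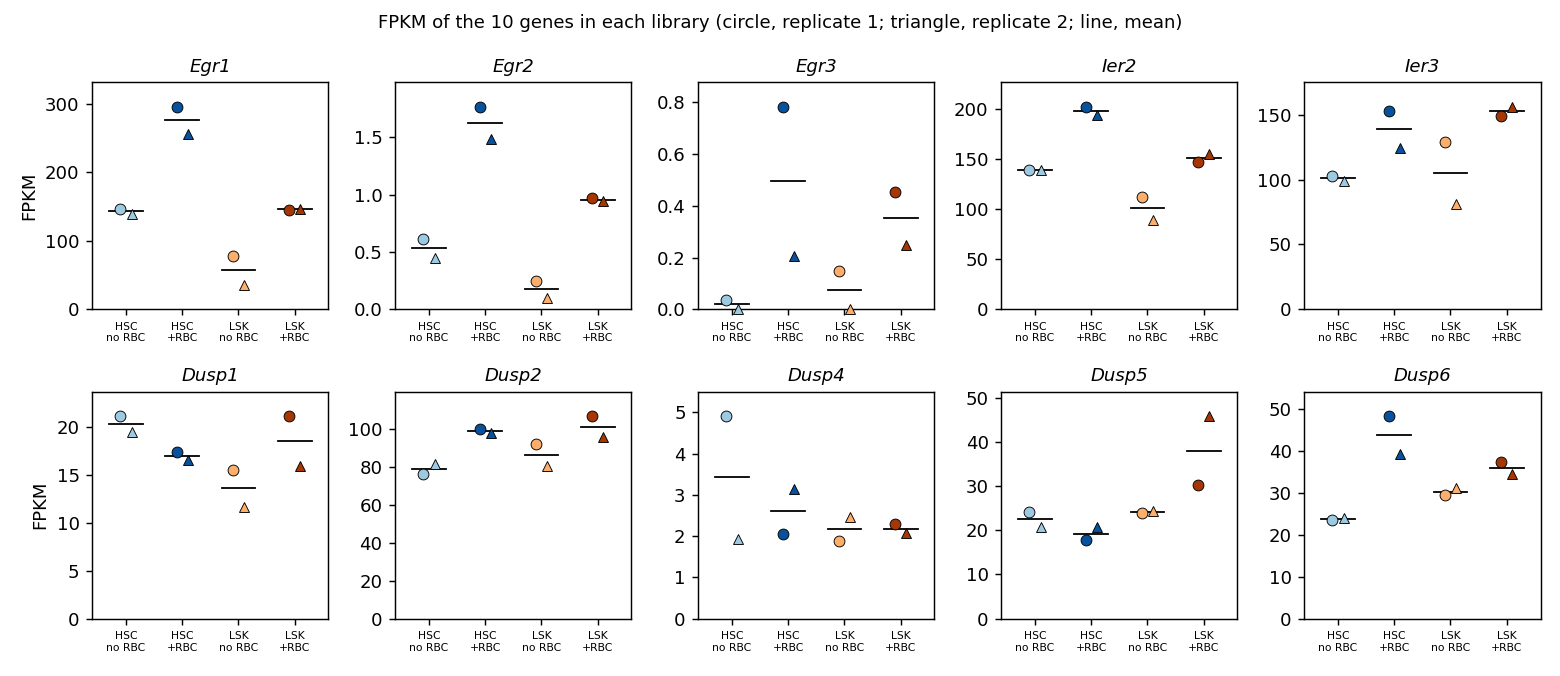
FPKM (vertical axis, linear from 0, a separate scale for each gene) of the 10 genes in the 8 libraries, by group (horizontal axis), with circles for replicate 1, triangles for replicate 2 and a line at the mean of the 2 libraries. The libraries with RBCs lay above those without for Egr1, Egr2 and Ier2 in both populations, and the HSC libraries above the LSK libraries of the same condition, whereas Dusp1 and Dusp5 with RBCs lay above the libraries without RBCs in LSK cells only, and the 2 HSC libraries without RBCs differed 2.54-fold for Dusp4.

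Comparing cultures with and without RBCs asked whether the ERK-responsive genes respond to coculture. Egr1 rose with RBCs in LSK cells, Ier2 rose in both populations, and Dusp6 rose in HSCs. The other members did not pass the test in either population. In HSCs, 2 of the 9 members tested passed an adjusted p under 0.05 with no fold threshold (limma with Benjamini-Hochberg adjustment over 12003 genes), both higher, against 1.57% of all genes tested that were higher by this rule and 2.53% in either direction. In LSK cells it was again 2 of 9, against 2.32% higher and 3.45% in either direction. With the added requirement of a 2-fold change, called below, 0 of 9 were called in HSCs (0.775% of all genes in either direction) and 1 of 9, Egr1, in LSK cells (1.01%). At an unadjusted p under 0.05, 6 of the 9 passed in HSCs and 8 of the 9 in LSK cells, against 13.7% and 18.6% of all genes. The members were chosen with earlier results of these data known, so these shares are a description and not a test of the set. The median log2 fold change of the 9 was 0.45 in HSCs and 0.58 in LSK cells, beside -0.0062 and -0.0095 over all genes tested. Egr2, which passed the filter only through the 2 HSC libraries with RBCs, is in these counts and medians. Without replicate 1 of the HSC cocultures Egr2 fell below the filter, and the HSC median of the remaining 8 was 0.30. Without replicate 2 it was 0.44. Without replicate 2 of the LSK control cultures the LSK median was 0.28, and without replicate 1 it was 0.62. Of these 2 libraries, replicate 2 was the lower for 6 of the 9 (Egr1, Egr2, Ier2, Ier3, Dusp1 and Dusp2), by 1.14-fold to 2.51-fold. Fold changes are on the log2(FPKM + 1) scale, which understates the change of low genes such as Egr2.

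**Figure D2:**
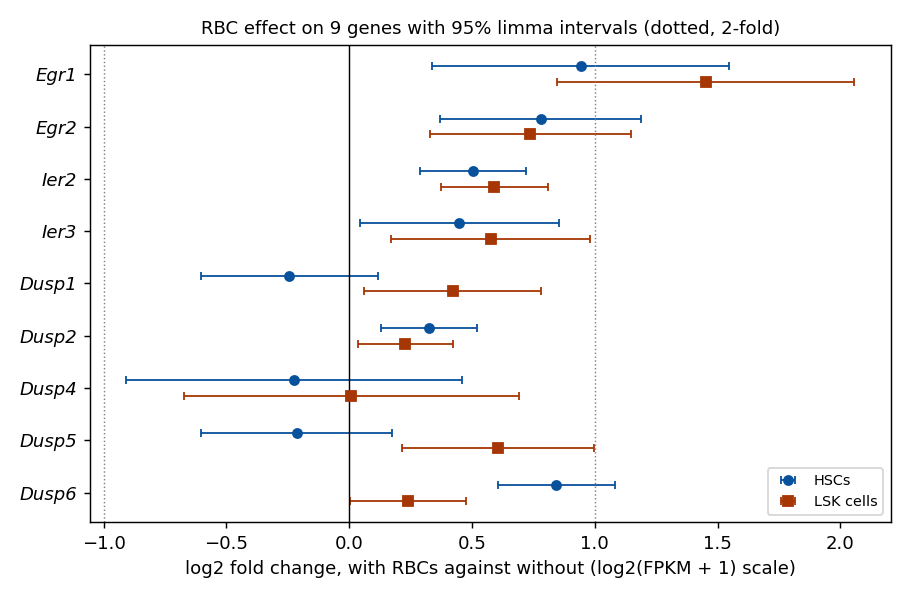
Log2 fold change with RBCs against without (horizontal axis, log2(FPKM + 1) scale) for the 9 genes tested (vertical axis), circles for HSCs and squares for LSK cells, with bars for the unadjusted 95% limma intervals and dotted lines at 2-fold. Egr1 in LSK cells lay beyond 2-fold at 1.45, Dusp6 lay at 0.84 in HSCs and 0.24 in LSK cells, and Dusp1 and Dusp5 lay below 0 in HSCs and above 0 in LSK cells.

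Egr1 (chr18:34859823-34864984, plus strand, GRCm38) encodes a zinc finger transcription factor of the EGR family. Its level was 147 and 139 FPKM in HSCs without RBCs and 296 and 257 with RBCs. In LSK cells it was measured at 77.9 and 35.8 FPKM without RBCs and at 145 and 147 with RBCs. Every library with RBCs lay above every library without RBCs of the same population, and the LSK libraries without RBCs were the lowest of the 8. In LSK cells, Egr1 rose by 1.45 on the log2 scale (standard error 0.27, adjusted p = 0.0222, limma). In HSCs, where the ratio of mean FPKM was 1.93, the log2 fold change of 0.94 (standard error 0.27) had an adjusted p of 0.130 and did not pass. The LSK call depended on the library: it was 0.90 (adjusted p = 0.00451) when replicate 2 of the LSK control cultures was left out, 2.0 (adjusted p = 9.75e-05) when replicate 1 was, and 1.46 and 1.44 (adjusted p = 0.113 and 0.138) without replicate 1 or 2 of the LSK cocultures. In a wider fit, of the 18967 genes with a value above 0 in any library, the adjusted p of 0.114 ended the call. The 2 LSK libraries without RBCs differed 2.18-fold for Egr1, against at most 1.15-fold within the other groups, and this spread enters the shared standard error. With either of these 2 libraries left out, the HSC change of 0.94 had an adjusted p of 0.000856 or 0.000893.

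Egr2 (chr10:67535475-67542188, plus strand), whose product is a related zinc finger factor, was measured at 0.614 and 0.449 FPKM in HSCs without RBCs and at 1.77 and 1.49 with RBCs. In LSK cells the values were 0.249 and 0.0992 FPKM without RBCs and 0.966 and 0.941 with RBCs. The groups did not overlap in either population, and the mean FPKM with RBCs was 3.06 times that without in HSCs and 5.48 times in LSK cells. Only the 2 HSC libraries with RBCs reached 1 FPKM. Egr2 therefore passed the filter through that group alone, which fixed its separation in HSCs. The log2(FPKM + 1) fold changes of 0.78 in HSCs (adjusted p = 0.0651) and 0.74 in LSK cells (adjusted p = 0.0641) did not pass. Counting the recovered fragments, 40 became 125 in HSCs, a depth-adjusted ratio of 3.0 (exact 95% interval 2.09 to 4.40), and 13 became 63 in LSK cells, a ratio of 5.61 (3.06 to 11.1). These intervals cover counting error only and not the spread between cultures.

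Egr3 (chr14:70077203-70082614, plus strand), another EGR-family factor, was listed at 0.0377 and 0 FPKM in HSCs without RBCs and at 0.784 and 0.206 with RBCs. In LSK cells it was listed at 0.148 and 0 FPKM without RBCs and at 0.455 and 0.248 with RBCs. The libraries with RBCs lay above those without in both populations, while the 2 HSC libraries with RBCs differed 3.81-fold. In HSCs 2 fragments became 48 (depth-adjusted ratio 23.1, exact 95% interval 6.04 to 196, counting error only), and in LSK cells 7 became 30 (ratio 4.96, 2.14 to 13.4). A library with 0 fragments allows up to 3. In the wider fit, Egr3 had a log2 fold change of 0.53 in HSCs (adjusted p = 0.357) and 0.33 in LSK cells (adjusted p = 0.525).

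Ier2 (chr8:84661331-84662852, minus strand) is an immediate early gene whose product is a nuclear protein. It was measured at 139 and 139 FPKM in HSCs without RBCs and at 202 and 193 with RBCs. In LSK cells the values were 112 and 89.4 FPKM without RBCs and 147 and 155 with RBCs. Both pairs of groups were apart, by more than the spread within them. Ier2 rose by 0.50 on the log2 scale in HSCs (standard error 0.10, adjusted p = 0.0288, limma) and by 0.59 in LSK cells (standard error 0.10, adjusted p = 0.0134). In that wider fit the adjusted p was 0.119 in HSCs and 0.0659 in LSK cells. Leaving out 1 library at a time kept the direction, with adjusted p from 0.00687 to 0.192 in HSCs, over 0.05 for each of the 4 HSC and the 2 LSK libraries with RBCs. In LSK cells it was over 0.05 with replicate 1 or 2 of the LSK cocultures left out (0.0772 and 0.115).

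Ier3 (chr17:35821684-35822923, plus strand) encodes a stress- and growth factor-inducible protein that affects apoptosis. The values of Ier3 were 103 and 99.0 FPKM in HSCs without RBCs and 153 and 124 with RBCs. In LSK cells the values were 129 and 81.0 FPKM without RBCs and 149 and 156 with RBCs. The groups did not overlap, yet the spread within them was wide, at 1.59-fold between the 2 LSK libraries without RBCs. The log2 fold changes of 0.45 (95% interval 0.04 to 0.85, adjusted p = 0.304) in HSCs and 0.58 (0.17 to 0.98, adjusted p = 0.129) in LSK cells did not pass. The LSK value was 0.25 without replicate 2 of the LSK control cultures and 0.91 (adjusted p = 0.0125) without replicate 1.

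Dusp6 (chr10:99263231-99267489, plus strand) encodes a cytoplasmic phosphatase with a preference for ERK and is widely used as a readout of ERK activity. It was measured at 23.6 and 24.0 FPKM in HSCs without RBCs and at 48.3 and 39.2 with RBCs. In LSK cells the values were 29.4 and 31.1 FPKM without RBCs and 37.4 and 34.4 with RBCs. The 2 HSC libraries without RBCs were the lowest of the 8 and the 2 with RBCs the highest. Dusp6 rose by 0.84 on the log2 scale in HSCs (standard error 0.11, 95% interval 0.61 to 1.08, adjusted p = 0.00375, limma), a ratio of mean FPKM of 1.84 that stayed under the 2-fold threshold. Under all the alternatives computed, including each library left out in turn, its adjusted p in HSCs stayed under 0.05, the highest being 0.0314 in the wider fit, and the log2 fold change lay between 0.70 and 0.99 with 1 library left out. In LSK cells the change of 0.24 (0.00 to 0.48) had an adjusted p of 0.266 and did not pass.

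Dusp5 (chr19:53529109-53542431, plus strand) encodes a nuclear phosphatase that binds ERK. It was measured at 24.2 and 20.8 FPKM in HSCs without RBCs and at 17.8 and 20.7 with RBCs, and the LSK values were 23.8 and 24.4 FPKM without RBCs and 30.2 and 45.8 with them. In HSCs the libraries with RBCs lay just below those without, and in LSK cells they lay above, with a 1.52-fold difference between the 2 LSK libraries with RBCs. The log2 fold changes were -0.21 (-0.60 to 0.18, adjusted p = 0.681) in HSCs and 0.61 (0.22 to 0.996, adjusted p = 0.101) in LSK cells, and neither passed. Without replicate 1 of the LSK cocultures the latter was 0.90 (adjusted p = 0.0310), and without replicate 2 it was 0.31 (adjusted p = 0.410). An antisense gene overlaps Dusp5, and because it is not stated whether strand was used in counting, its reads cannot be told apart from those of Dusp5.

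Dusp1 (chr17:26505590-26562128, minus strand) encodes a nuclear phosphatase that also acts on p38 and JNK. It was measured at 21.1 and 19.4 FPKM in HSCs without RBCs and at 17.4 and 16.6 with RBCs. In LSK cells the values were 15.6 and 11.6 FPKM without RBCs and 21.1 and 15.9 with RBCs. As for Dusp5, the libraries with RBCs lay below those without in HSCs and above them in LSK cells. The log2 fold changes were -0.24 (-0.60 to 0.12, adjusted p = 0.593) in HSCs and 0.42 (0.06 to 0.78, adjusted p = 0.2003) in LSK cells, and neither passed. Ergic1 and a pseudogene on the other strand, and a pseudogene and a sense intronic gene on the same strand, overlap the annotated span of Dusp1. That span covers 6 annotated transcripts, the longest of 2313 bases, and which of them these genes overlap was not checked. The reads of Dusp1 may therefore carry the same limit.

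Dusp2 (chr2:127336159-127338376, plus strand), a nuclear phosphatase prominent in hematopoietic cells, was the most abundant of the 5 phosphatase genes. It was measured at 76.2 and 81.4 FPKM in HSCs without RBCs and at 100 and 97.8 with RBCs, and the LSK values were 92.0 and 80.5 FPKM without RBCs and 107 and 95.6 with them. The groups did not overlap, and the differences were small, at 0.32 on the log2 scale (0.13 to 0.52, adjusted p = 0.106) in HSCs and 0.23 (0.03 to 0.42, adjusted p = 0.199) in LSK cells, without passing the test. Dusp4 (chr8:34807297-34819894, plus strand), whose product is a nuclear phosphatase for ERK and JNK, was measured at 4.91 and 1.94 FPKM in HSCs without RBCs and at 2.06 and 3.15 with RBCs, and the LSK values were 1.89 and 2.47 FPKM without RBCs and 2.29 and 2.08 with them. Its groups overlapped in both populations. The first HSC library without RBCs held 161 of its fragments and the second 52, and the HSC change of -0.22 (-0.91 to 0.46, adjusted p = 0.843) turned to 0.28 (adjusted p = 0.632) without that first library. In LSK cells it was 0.01 (-0.67 to 0.69, adjusted p = 0.993).

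Counted over the 9 members tested, 6 had both HSC libraries with RBCs above both without (Egr1, Egr2, Ier2, Ier3, Dusp2 and Dusp6), against 19.9% of all genes tested, and 2 had them below (Dusp1 and Dusp5), against 21.8%. In LSK cells 8 of 9 had both libraries with RBCs above both without, all but Dusp4, against 24.2% of all genes. Egr2 passed the filter only through the HSC libraries with RBCs, so its place in the HSC count was fixed in advance. For a single gene, an exact permutation test (two-sided) of 2 libraries against 2 has a smallest possible p of 0.333, which is why the calls use a spread estimated from many genes.

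The difference between the RBC effects of the populations was tested as an interaction in the same fit. No member was called (0 of 9, against 0.108% of all genes, and 0 of 9 also with no fold threshold, against 0.133%), while 3 of the 9 had an unadjusted p under 0.05, against 12.5% of all genes. For Dusp5 the effect in LSK cells minus that in HSCs was 0.82 on the log2 scale (95% interval 0.27 to 1.37, unadjusted p = 0.00816, adjusted p = 0.228). For Dusp1 it was 0.66 (0.16 to 1.17, unadjusted p = 0.0159, adjusted p = 0.289), and for Dusp6 it was -0.60 (-0.94 to -0.27, unadjusted p = 0.00277, adjusted p = 0.182). None of the 3 passed the adjustment, so the opposite directions of Dusp1 and Dusp5 and the larger HSC change of Dusp6 are not shown to differ between the populations. For Egr1 the difference was 0.51 with an interval from -0.35 to 1.36, for Egr2 -0.04 (-0.62 to 0.54), for Ier2 0.09 (-0.22 to 0.39) and for Ier3 0.13 (-0.44 to 0.70). With replicate 1 of the LSK control cultures left out the difference for Egr1 was 1.06 (adjusted p = 0.0293), and with replicate 2 left out it was -0.04 (adjusted p = 0.930).

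LSK cells were also compared with HSCs under each condition. These comparisons share libraries with the RBC effects above and with the interaction, and their values are given side by side only. Egr1 was lower in LSK cells than in HSCs in both conditions, as was Ier2. Dusp1 was lower in LSK cells without RBCs, and Dusp5 was higher in LSK cells with RBCs. Without RBCs, 1 of the 9 members was called (Egr1, lower, against 2.66% of all genes in either direction and 1.03% lower), and 3 passed with no fold threshold, all lower, against 7.29% lower and 14.2% in either direction. With RBCs, 0 of 9 were called (against 3.61%), and with no fold threshold 1 passed as higher (against 11.9%) and 2 as lower (against 12.5%), or 3 of 9 against 24.4% in either direction.

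Egr1 was lower in LSK cells by 1.42 on the log2 scale without RBCs (-1.42, standard error 0.27, adjusted p = 0.00863, limma) and by 0.91 with RBCs (-0.91, standard error 0.27, adjusted p = 0.0362). The former was -0.87 (adjusted p = 0.00218), under the 2-fold threshold, when replicate 2 of the LSK control cultures was left out and -1.97 (adjusted p = 4.77e-05) when replicate 1 was. In the wider fit neither passed, with adjusted p of 0.056 and 0.124, and the latter was over 0.05 without each of the 4 libraries with RBCs, up to 0.154. In order of level, Egr1 was lowest in LSK cells without RBCs (56.8 ± 29.8 FPKM, SD, n = 2), followed by HSCs without RBCs (143 ± 5.13) and LSK cells with RBCs (146 ± 1.30), whose libraries overlapped, and highest in HSCs with RBCs (277 ± 27.8). Ier2 showed a difference of -0.47 (adjusted p = 0.0123) without RBCs and -0.38 (adjusted p = 0.0189) with RBCs, neither of which passed in the wider fit (adjusted p = 0.0505 and 0.0577). Its levels were ordered the same way, at 101 ± 15.9 FPKM, 139 ± 0.378, 151 ± 5.56 and 198 ± 6.22, with no overlap between neighbours in that order. Egr2 had differences of -0.38 (adjusted p = 0.201) and -0.43 (adjusted p = 0.120), which did not pass.

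Dusp1 was lower in LSK cells without RBCs, at -0.56 on the log2 scale (adjusted p = 0.0471), and did not differ beyond its spread with RBCs (0.11, 95% interval -0.25 to 0.47, adjusted p = 0.666). The difference without RBCs was under 2-fold and so not called, and it did not pass in the wider fit (adjusted p = 0.126, limma). With 1 library left out, it lay between -0.75 and -0.36. Dusp5 showed a difference of 0.92 with RBCs (standard error 0.17, adjusted p = 0.00534), which was 0.63 without replicate 2 of the LSK cocultures and 1.21 without replicate 1, and of 0.10 (adjusted p = 0.754) without RBCs. Dusp6 differed by 0.33 without RBCs (adjusted p = 0.0672) and by -0.27 with RBCs (adjusted p = 0.0926), and neither passed. Ier3, Dusp2 and Dusp4 overlapped between the populations in both conditions, with adjusted p between 0.380 and 0.968.

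Genes around the 10 were described from lists of the same pathway. Upstream, none of the 20 tested genes of the Ras and ERK cascade (22 listed) passed an adjusted p under 0.05 with RBCs in either population, with list medians of 0.01 in HSCs and 0.02 in LSK cells on the log2 scale. These are transcript levels, and the activity of the cascade was not measured. Of the 12 growth factor receptor genes tested (14 listed), Csf1r, the receptor of the macrophage growth factor, was called higher in both, at 1.32 in HSCs (adjusted p = 0.0121) and 1.44 in LSK cells (adjusted p = 0.00753). Csf1r is also one of the monocyte or macrophage markers given above. Kit, the SCF receptor, fell by 0.37 in HSCs (-0.37, adjusted p = 0.0214) and had a change of -0.28 in LSK cells (adjusted p = 0.0555). With no fold threshold, Csf3r (0.72) and Fgfr1 (0.87) also rose in HSCs.

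Among the transcription factors, none of the 9 tested ETS and SRF genes (11 listed) passed in either population, Srf itself having changes of 0.10 in HSCs and 0.31 in LSK cells. Of 7 AP-1 genes tested (9 listed), Fos was called higher in both, at 1.53 in HSCs (adjusted p = 0.00421) and 3.31 in LSK cells (adjusted p = 0.000118). In LSK cells Jun was called higher as well (1.24) and Fosl1 lower (-1.42). In HSCs Fosl1 fell by just under 2-fold (-0.98, adjusted p = 0.0106, limma), and Jun did not pass (0.82, adjusted p = 0.0736). Junb passed with no fold threshold as higher in both, at 0.63 in HSCs (adjusted p = 0.0144) and 0.76 in LSK cells (adjusted p = 0.00609). Of 23 other immediate early and early response genes tested (28 listed), Rgs1 and Rgs2, regulators of G protein signalling, were called higher in HSCs (1.20 and 1.08), and Klf2 and Zfp36, a transcription factor and an mRNA-destabilizing protein, in LSK cells (1.26 and 1.37). Zfp36 also passed with no fold threshold in HSCs (0.74, adjusted p = 0.0409, limma), as did Rgs2 in LSK cells (0.94, adjusted p = 0.00907). Neither Klf2 in HSCs (0.68, adjusted p = 0.0969) nor Rgs1 in LSK cells (0.61, adjusted p = 0.0612) did. Rgs2 and Junb fell outside the rule for named genes and were named after their values were seen.

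Among the other feedback inhibitors, none of the 5 tested Sprouty, Spred and related genes (10 listed) passed with RBCs. Spry1, an inhibitor of receptor tyrosine kinase signalling, was lower in LSK cells than in HSCs without RBCs (-1.19, adjusted p = 0.0137). Of 11 other dual-specificity phosphatase genes tested (16 listed), Dusp22 was called higher with RBCs in LSK cells (1.05, adjusted p = 0.00912) and none in HSCs, and the list medians were -0.12 in HSCs and -0.17 in LSK cells, beside 0.45 and 0.58 for the 9 members. None of the 4 other tested EGR, NAB and IER family genes (5 listed), 12 JNK and p38 kinase genes or 7 heat shock genes (9 listed) passed with RBCs. Nab2, a corepressor of EGR factors, had changes of 0.42 in HSCs (adjusted p = 0.177) and -0.39 in LSK cells (adjusted p = 0.164).

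**Figure D3:**
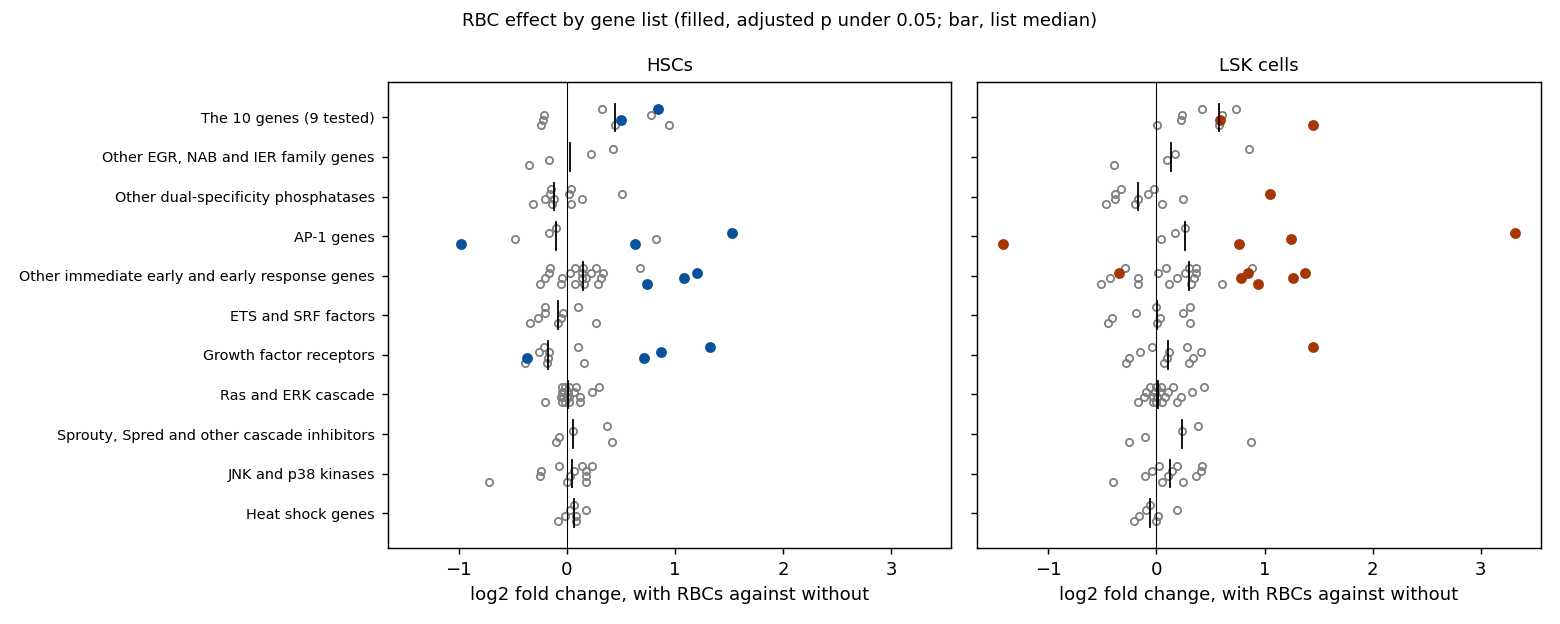
Log2 fold change with RBCs against without (horizontal axis) of each tested gene, by list (vertical axis), for HSCs on the left and LSK cells on the right, with filled points for an adjusted p under 0.05 and a bar at the list median. The points of the Ras and ERK cascade lay within -0.20 and 0.44 in both panels with none filled, while AP-1 genes spread from -1.42 to 3.31 in LSK cells.

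Profiles over the 8 libraries were also compared with those of all genes tested, as a description with no test. The 5 genes most like Egr1 by Pearson's r on the log2(FPKM + 1) scale were Ier2 (0.99), Rasd1 (0.98), Soat1 (0.97), Lsp1 (0.97) and Rap1b (0.97). The 5 most like Dusp6 were Vldlr (0.96), Robo3 (0.96), Skil (0.95), Rasal3 (0.95) and Src (0.95). No gene was in both groups. The Egr1-like genes were lowest in LSK cells without RBCs, and the Dusp6-like genes were lowest in HSCs without RBCs.

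**Figure D4:**
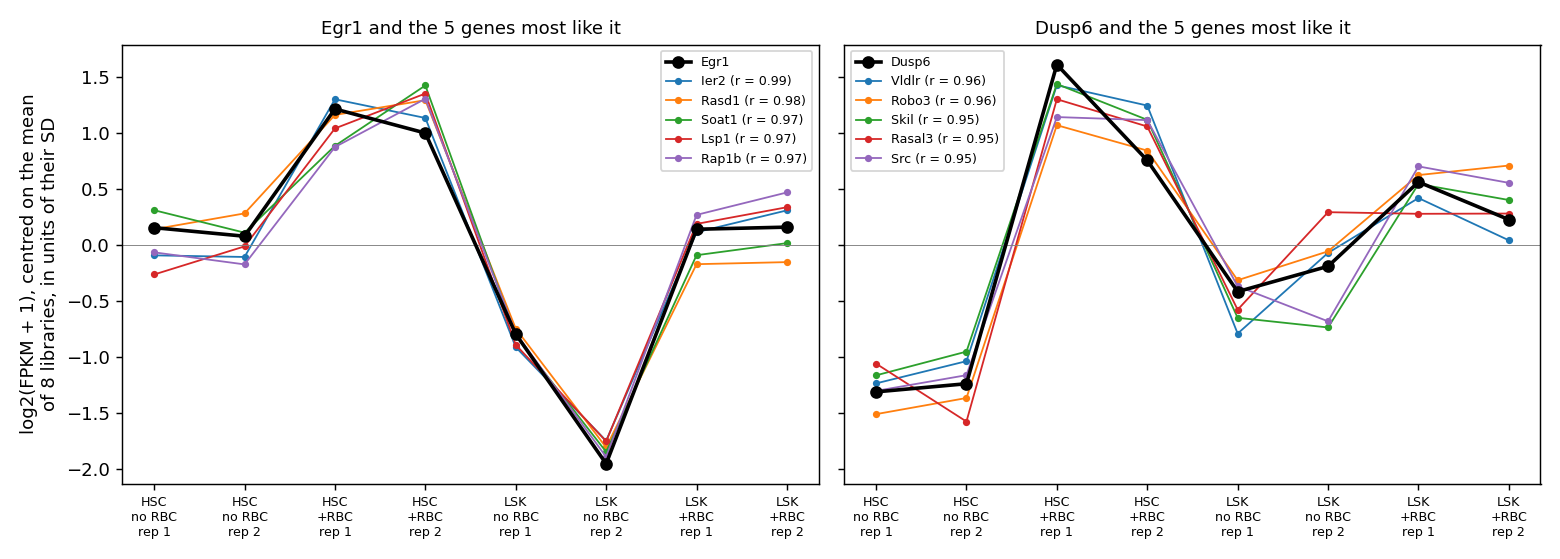
Profiles of Egr1 (left) and Dusp6 (right) in black with the 5 genes most like each, as log2(FPKM + 1) centred on the mean of the 8 libraries and divided by their SD (vertical axis), by library (horizontal axis), with r in the legend. The highest values were in the HSC libraries with RBCs in both panels, and the lowest were in LSK cells without RBCs for Egr1 and in HSCs without RBCs for Dusp6.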

How the data were processed

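For each of the 8 libraries the authors deposited an FPKM per gene symbol, made from SMART-Seq HT full-length cDNA and Nextera XT libraries sequenced on an Illumina HiSeq. The submitters' processing notes list TopHat2 2.1.1, Bowtie2 2.2.8, SAMtools 0.1.18, Cuffdiff 2.2.1 and mm10, without their roles. The annotation, and whether strand was used, are not given in the sources used here. Groups were taken from the labels.

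Values were put on a log2 scale after adding a pseudocount of 1, and genes that reached FPKM 1 in 2 libraries or more were kept. The 4 group means were fitted together with limma 3.58.1 (R 4.3.3) and a mean-variance trend, with no replicate block, and p-values were adjusted by Benjamini-Hochberg over 12003 genes. A gene was called at an adjusted p under 0.05 together with a 2-fold or larger change, and calls with no fold threshold are given beside them. Whole fragments were recovered from the FPKM steps within a tolerance of 0.05 fragments, and ratios of fragments have exact 95% intervals. The absolute depth is unknown. Positions came from GENCODE M21 (GRCm38) and promoter sequences from RefSeq (GRCm38.p6), at the start with the most other annotated starts near it where a gene had several.

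The 10 genes and the gene lists were chosen with earlier results of these data known. Named genes were all 10 members, the called genes of each list (at most 5 by size of change) with Kit, and the 5 genes most like Egr1 and Dusp6, and some named genes are not reported here. Alternatives covered the pseudocount, the filter, median and quantile scaling, a replicate block, the fold threshold and each library left out in turn.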

Additional observations from a re-analysis of the deposited data

Results flagged for a closer look

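For 2 members, the libraries with and without RBCs did not overlap and differed in opposite directions in the 2 populations. Both members also had an unadjusted interaction p under 0.05. Dusp1 was lower with RBCs in both HSC libraries and higher in both LSK libraries, and the effect in LSK cells minus that in HSCs was 0.66 on the log2 scale (standard error 0.23, limma unadjusted p = 0.0159, adjusted p = 0.289). Dusp5 was likewise lower in both HSC libraries and higher in both LSK libraries, with a difference of 0.82 (standard error 0.24, unadjusted p = 0.00816, adjusted p = 0.228). On 1 side the nearest libraries of each gene almost met. These were 20.70 FPKM with RBCs against 20.75 without for Dusp5 in HSCs, and 15.9 against 15.6 for Dusp1 in LSK cells. Neither difference passed the adjustment over 12003 genes, of which 12.5% had an unadjusted p under 0.05. The unadjusted limma interval of the HSC change ran from -0.60 to 0.12 for Dusp1 and from -0.60 to 0.18 for Dusp5. A fall in HSCs was therefore not shown for either. Of all genes tested, 21.8% had both HSC libraries with RBCs below both without, and 24.2% had both LSK libraries above. The share of genes with both patterns together was not counted. With 1 library left out, the difference lay between 0.47 and 0.86 for Dusp1 and between 0.53 and 1.11 for Dusp5. The annotated spans of both genes overlap genes on the other strand, and that of Dusp1 also genes on its own strand. The part of those reads was not tested.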

How the results depend on the processing

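With no fold threshold, 2 members passed as higher in HSCs and 2 in LSK cells with RBCs, 3 as lower in LSK cells against HSCs without RBCs, and 1 as higher and 2 as lower with RBCs. In the wider fit of genes above 0 in any library, 0 members were called higher in LSK cells with RBCs and 0 lower in LSK cells against HSCs without RBCs, Egr1 being lost in both. Leaving out 1 library at a time, the members called ranged from 0 to 0 for the HSC effect, 0 to 1 higher for the LSK effect, 0 to 1 higher for the difference of the effects (Egr1), 0 to 1 lower without RBCs and 0 to 1 higher with RBCs (Dusp5). A group left with 1 library was assumed to vary like the others.

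Over all genes, the HSC effect gave 76 genes higher and 17 lower, against 46 and 4 in the wider fit, 189 and 115 with no fold threshold and 27 lower with a pseudocount of 0.1. The LSK effect gave 108 higher and 13 lower, against 63 and 7, and 278 and 136. The difference gave 9 higher and 4 lower, against 2 and 0 in the wider fit, 14 higher with quantile normalization and 5 higher with the replicate block. With 1 library left out, the HSC effect gave 53 (without replicate 1 of the HSC cocultures) to 77 higher and 13 to 19 lower. The LSK effect gave 51 (without replicate 1 of the LSK cocultures) to 106 higher and 8 (without replicate 1 of the LSK control cultures) to 13 lower. The difference gave 3 (without replicate 2 of the LSK cocultures) to 10 higher and 3 to 6 lower.

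Directions turned for changes that had not passed in the main fit, and the cause was not tested. With 1 library left out, the Dusp4 effect ranged from -0.73 to 0.28 in HSCs and from -0.12 to 0.14 in LSK cells. The difference of the effects ranged from -0.0427 to 1.06 for Egr1, -0.13 to 0.0505 for Egr2, -0.0741 to 0.25 for Ier2, -0.20 to 0.46 for Ier3 and -0.27 to 0.74 for Dusp4. Between LSK cells and HSCs without RBCs, the range was -0.32 to 0.35 for Ier3, -0.90 to 0.11 for Dusp4 and -0.0054 to 0.21 for Dusp5, and with RBCs -0.0036 to 0.29 for Ier3, -0.0877 to 0.30 for Dusp1, -0.049 to 0.11 for Dusp2 and -0.38 to 0.0572 for Dusp4. The difference for Egr2 was 0.54 with a pseudocount of 0.1 and 0.0053 with quantile normalization, which also gave -0.0587 for the Dusp4 effect in LSK cells.

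The groups share replicate numbers. Same-numbered libraries did not deviate together (r of deviations from -0.067 to 0.0954 over the 6 pairs of groups), so the numbers were not taken as pairs. With the replicate block, the Egr1 effect was 1.45 in LSK cells (adjusted p = 0.0201) and the Dusp6 effect 0.84 in HSCs (adjusted p = 0.0079), 1 member was still called higher in LSK cells, and no member's call changed. Scaling moved the median change of all genes by between -0.0247 and 0.0072. Depth limits Egr2, Egr3 and Dusp4, with at most 64, 37 and 161 fragments in a library.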
